A study of Mus musculus with 18 samples.

Results

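The transcription factor p53 (gene Trp53 in the mouse) and 35 genes known as its targets or feedback partners were followed in fibroblasts driven into senescence by oncogenic RAS, with and without the ribosomal S6 kinases. The 36 genes were taken by symbol from a list of textbook p53 targets, and all 36 of them were found among the 55401 genes of the count table. They held 0.504% of all counts. The cells were mouse embryonic fibroblasts (MEFs), primary cells grown from mid-gestation embryos and labelled as fibroblasts, in 6 groups of 3 libraries. In the S6K1 series, S6K1 WT cells carried an empty retroviral vector (EV) or a vector for constitutive RAS expression (RAS), and S6K1 KO cells carried RAS. In the S6K1/S6K2 series, S6K1/S6K2 WT cells carried EV or RAS, and S6K1/S6K2 DKO cells carried RAS. According to the methods of the study, all cells were infected with pooled viral supernatants and selected with puromycin, S6K1 WT and KO embryos were littermates, and the S6K1/S6K2 WT embryos came from WT mothers of an earlier breeding step and were not littermates of the DKO embryos. Genotype and breeding can therefore not be told apart in that series, and knockout cells with EV were not analysed here.

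p53 is kept low in unstressed cells by Mdm2, the ubiquitin ligase that it also transcribes, and rises through protein stabilisation rather than through its own mRNA when DNA damage or oncogenic signals reach it. Its targets halt the cell cycle, promote death of the cell, repair DNA and, through the sestrins, inhibit mTORC1, the kinase complex upstream of S6K1. In RAS-induced senescence the p19Arf product of Cdkn2a inhibits Mdm2, and p53 is one of the factors that hold MEFs in arrest. The comparisons below ask how the mRNAs of this network differed between RAS and EV cells, and whether loss of S6K1, or of S6K1 and S6K2, altered them in RAS cells.

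The p53 response element is built from pairs of a 10-base half-site. Promoter windows from RefSeq (GRCm38.p6, 250 bases before to 50 bases after an annotated start site) were at hand for 28 of the 36 genes, and 12 of these 28 (42.9%) held at least 1 match to the p53 half-site consensus on either strand, against 9.55% of 27025 genes with a window. The 12 were Aen, Bax, Ccng1, Ei24, Gadd45a, Gtse1, Mdm2, Polk, Ppm1d, Rps27l, Sesn1 and Trp53. The AP-1 motif TGANTCA was found in the window of 1 member (Fas; 3.57% against 8.97% of all genes) and the ETS motif CCGGAAG in those of 3 members (10.7% against 9.93%), both searched on both strands. These 3 (Gtse1, Mdm2 and Rps27l) are also among the 12. A match is a description of letters and not of binding. Stretches of 100 bases are shown for 3 genes that were higher with RAS in at least 1 series, Mdm2 (chr10:117710890-117710989, minus strand), Ccng1 (chr11:40755417-40755516, minus strand) and Gadd45a (chr6:67037393-67037492, minus strand), for Sesn1, which was lower (chr10:41887221-41887320, plus strand), and for Trp53 itself (chr11:69580239-69580338, plus strand). They run 5′ to 3′ on the strand of the gene, with the half-site match in capitals:
Mdm2: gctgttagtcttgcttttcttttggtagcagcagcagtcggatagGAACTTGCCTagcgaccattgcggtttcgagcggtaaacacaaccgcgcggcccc
Ccng1: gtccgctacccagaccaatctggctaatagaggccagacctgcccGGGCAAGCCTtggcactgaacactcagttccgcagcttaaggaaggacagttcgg
Gadd45a: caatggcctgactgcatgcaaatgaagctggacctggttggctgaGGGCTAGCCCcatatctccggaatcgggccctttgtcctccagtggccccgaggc
Sesn1: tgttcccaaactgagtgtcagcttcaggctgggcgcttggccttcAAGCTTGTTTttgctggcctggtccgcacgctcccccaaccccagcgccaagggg
Trp53: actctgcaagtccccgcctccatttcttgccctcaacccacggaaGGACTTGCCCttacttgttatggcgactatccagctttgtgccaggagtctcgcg
Counted from an annotated start site, the match began 186 bases before it in Mdm2, 185 in Ccng1 and 40 in Gadd45a. For Sesn1 the distance was 173 bases and for Trp53 75 bases. The start site used for Ccng1, Sesn1 and Trp53 is not the 5′ end of the annotated gene.

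Libraries held 8319445 to 14402442 counts assigned to genes. Values are CPM, the usual scaling of counts to a common library size, with TMM factors set within each series, and fold changes are log2 values with standard errors from edgeR's quasi-likelihood test, with p adjusted by Benjamini-Hochberg over all genes tested. A gene was called at an adjusted p under 0.05. All 36 members passed the filter on low counts in both series. The label checks were as follows. Rps6kb1, which encodes S6K1, measured 61.6, 70.9 and 74.6 CPM in WT RAS and 23.6, 31.3 and 37.00 CPM in KO RAS libraries, without overlap, although its adjusted p was 0.234. Rps6kb1 was called lower, at -1.18 on the log2 scale, by a fit with a term for the library number and also by DESeq2. In the other series it measured 75.5, 83.7 and 82.7 CPM in WT RAS and 34.5, 39.7 and 38.2 CPM in DKO RAS libraries (adjusted p = 0.00908), and Rps6kb2, which encodes S6K2, fell from 24.5, 24.1 and 28.9 CPM to 2.68, 3.04 and 2.80 CPM (adjusted p = 7.44e-05). Hras rose with RAS by 0.93 ± 0.14 and 0.75 ± 0.15 on the log2 scale in the S6K1 and S6K1/S6K2 series. The 10 fibroblast markers, all detected in every group, summed to 43750 to 54174 CPM with EV and 24029 to 35771 CPM with RAS in the S6K1 series, and to 44101 to 51584 CPM and 25858 to 29540 CPM in the other. The sums did not overlap, and 4 of the 10 markers were called lower with RAS in each series. Of the rest, 1 was called higher in the S6K1 series and 0 in the S6K1/S6K2 series. Estimates were above 0 for 4 of the 10 in each series. The part of these markers in the RAS changes of the members was not tested. Of the markers of other cells, the 10 macrophage genes summed to 70.9 to 3120.5 CPM, the 5 endothelial genes to 7.71 to 13.6 CPM, and 4 of the 5 muscle genes (Actc1, Myh3, Myod1, Myog) were at 3 counts or fewer in every library. In such bulk samples, fewer cells of a type and less RNA per cell cannot be told apart.

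Per kilobase of exon, Ccng1 was the most abundant member in all 6 groups, at 211 to 464 CPM per kilobase, and Cyfip2 and Gdf15 were the lowest in each. In S6K1 WT cells with EV the median member stood at 20.7 CPM per kilobase, with Ccng1 at 313, Ephx1 at 164 and Rps27l at 119. With RAS in the same series, the order at the top was Ccng1 at 393, Rps27l at 154 and Plk2 at 119 CPM per kilobase.

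RAS changed the p53 network in part, and in both directions. In the S6K1 series, 4 of 36 members rose and 2 fell (13.2% of all 14036 genes were called, 7.15% higher and 6.09% lower). In the S6K1/S6K2 series, 10 members rose and 4 fell (26.3% of all 13881 genes were called, 13.5% higher and 12.7% lower). The 6 genes called in the S6K1 series were also called in the other, in the same direction: Mdm2, Pmaip1, Perp and Plk3 rose, and Fas and Ephx1 fell. A further 8 were called in the S6K1/S6K2 series alone, and 22 in neither. The share of members called, 6 and 14 of 36, stood near the share of all genes in the S6K1 series and above it in the other. The median log2 fold change over the members was 0.17 in the S6K1 series and 0.25 in the S6K1/S6K2 series, beside 0.00 and -0.02 over all genes. Because same-numbered libraries of the RAS and EV groups deviated together, the comparison was also fitted with a term for the number (the replicate block). The term was shared by all 9 libraries of a series, the KO or DKO RAS libraries included. This fit called 10 members higher and 8 lower in the S6K1 series, where it called 36.2% of all genes, and 13 higher and 4 lower in the S6K1/S6K2 series, where it called 28.7%. The libraries of RAS and EV did not overlap for 12 members in the S6K1 series (30.9% of all genes) and for 19 in the S6K1/S6K2 series (42.5% of all genes).

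**Figure D1:**
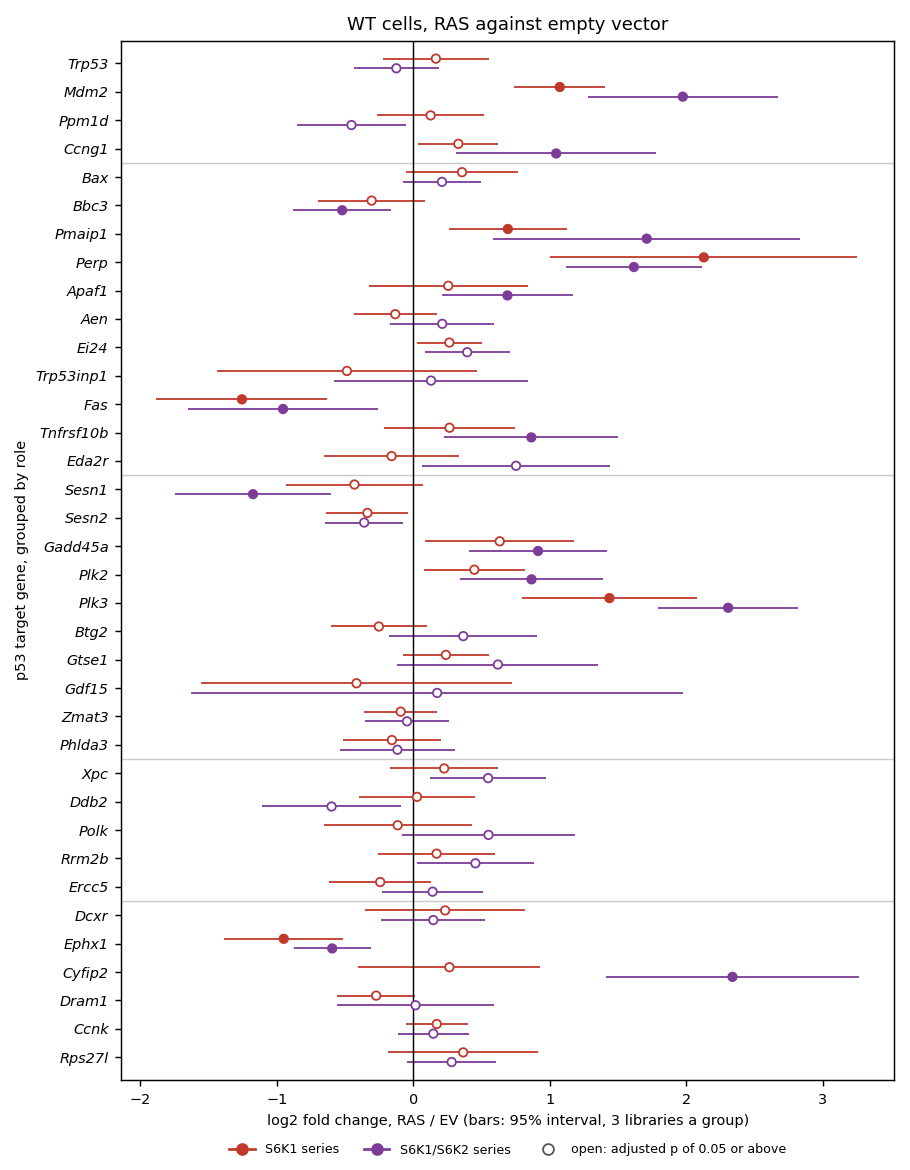
Log2 fold change of RAS against EV in WT cells (horizontal axis) for the 36 p53 network genes, grouped by role from top to bottom (p53 and feedback, apoptosis, growth arrest and stress, DNA repair, other). Points are edgeR estimates without the block from 3 libraries a group, and bars are 95% intervals. Filled points have an adjusted p under 0.05: 6 in the S6K1 series and 14 in the S6K1/S6K2 series.

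p53 and its feedback regulators came first. Trp53 mRNA itself measured 108, 95.2 and 98.6 CPM with EV and 125, 113 and 101 CPM with RAS in the S6K1 series, and 123, 102 and 102 CPM and 115, 86.6 and 98.9 CPM in the S6K1/S6K2 series. The groups overlapped in both series, with log2 fold changes of 0.16 ± 0.17 and -0.13 ± 0.14 (adjusted p = 0.593 and 0.528) and 95% intervals of -0.22 to 0.55 and -0.43 to 0.18. Mdm2 measured 265, 277 and 287 CPM with EV and 485, 589 and 669.6 CPM with RAS in the S6K1 series. Every RAS library lay above every EV library, and the gene rose by 1.07 ± 0.15 (adjusted p = 0.00184). The EV libraries of the S6K1/S6K2 series held 110.2, 153 and 283 CPM and the RAS libraries 560.2, 785 and 799 CPM, again without overlap, a rise of 1.97 ± 0.31 (adjusted p = 0.00212). Mdm2 was the higher of the RAS pair in all same-numbered pairs of both series, by 0.87 to 2.36 on the log2 scale.

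Ccng1 encodes cyclin G1, which recruits a phosphatase to Mdm2 and restrains p53. It measured 1057, 1063 and 1179 CPM with EV and 1274, 1267 and 1604 CPM with RAS in the S6K1 series, without overlap but short of the threshold (0.33 ± 0.13, adjusted p = 0.139; 0.0245 with the replicate block). It rose from 401, 719 and 1100.1 CPM to 1364, 1462 and 1758 CPM in the S6K1/S6K2 series (1.05 ± 0.33, adjusted p = 0.0409). The EV libraries of that series spread far wider than the RAS libraries. Ppm1d, which encodes the phosphatase Wip1 that dephosphorylates p53, was called in neither series (0.13 ± 0.17 and -0.45 ± 0.18), with group means between 13.3 and 21.1 CPM.

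**Figure D2:**
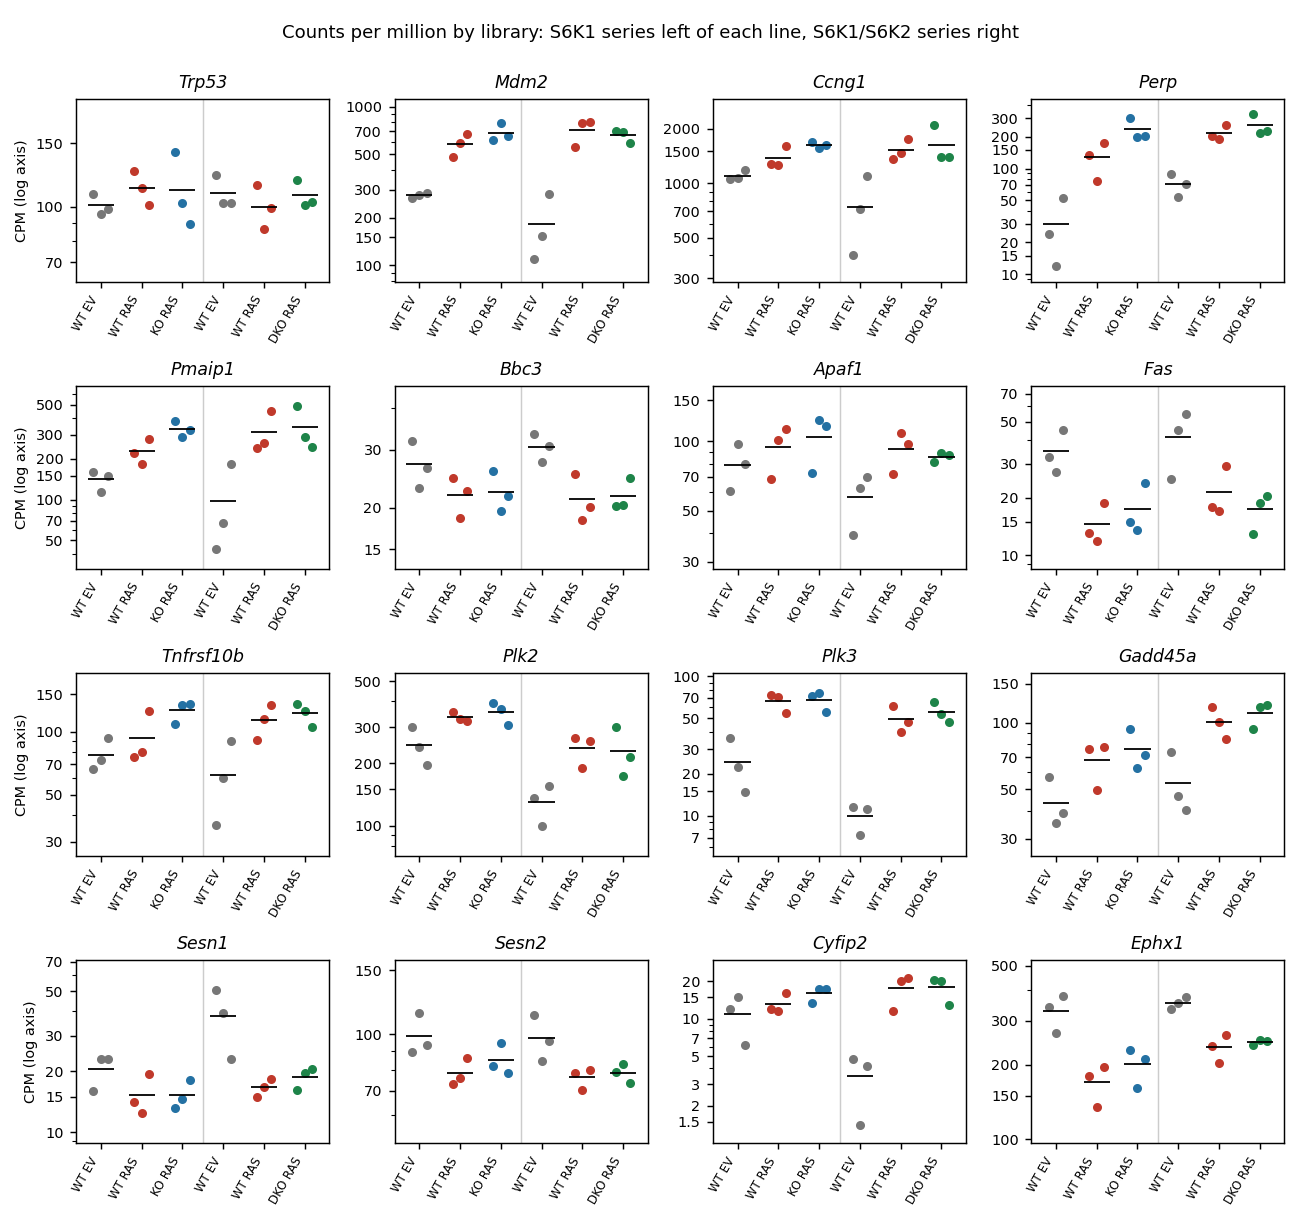
CPM by library (log axis) of the 16 genes given with every library, the S6K1 series left of each grey line and the S6K1/S6K2 series right of it. Each point is a library and each bar a group mean of 3 libraries. Mdm2, Perp, Pmaip1 and Plk3 are higher in every RAS library than in every EV library of their series, and Trp53 is not separated.

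Among the 11 apoptosis genes, 2 rose and 1 fell in the S6K1 series, and 4 rose and 2 fell in the S6K1/S6K2 series. Perp encodes a tetraspan membrane protein of p53-dependent death that is also a part of desmosomes. It measured 23.9, 11.8 and 52.9 CPM with EV and 134, 76.6 and 175 CPM with RAS in the S6K1 series, and rose by 2.13 ± 0.50 (adjusted p = 0.0224). Perp went in the S6K1/S6K2 series from 88.4, 53.9 and 70.98 CPM to 202, 193 and 259 CPM, a rise of 1.62 ± 0.22 (adjusted p = 0.0012). The groups did not overlap in either series. The sum of 5 epithelial markers moved the same way, from 4.67 to 10.2 CPM with EV to 109 to 150 CPM with RAS in the S6K1 series, and from 0.611 to 3.85 CPM to 79.2 to 120 CPM in the other. Krt18 made up most of the sum with RAS, at 103 to 142 CPM in the S6K1 series and 75.5 to 114 CPM in the other. The 3 markers that passed the filter on low counts were called higher with RAS in both series. Cdh1 was at 1.31 CPM or less in every library. Krt5 was at 3 counts or fewer in every library, and the part of the epithelial markers in the change of Perp was not tested.

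Pmaip1 encodes Noxa, a BH3-only protein that neutralises anti-apoptotic Bcl-2 relatives. It measured 160.2, 114 and 149 CPM with EV and 221, 182 and 281 CPM with RAS in the S6K1 series (0.69 ± 0.19, adjusted p = 0.0444). The values in the S6K1/S6K2 series were 43.2, 66.8 and 182 CPM and 241, 261 and 452 CPM (1.71 ± 0.50, adjusted p = 0.0328). Both sets were without overlap. Bbc3 encodes the related BH3-only protein Puma, and its estimates were below 0. It measured 31.9, 23.03 and 26.4 CPM with EV and 24.6, 18.6 and 22.6 CPM with RAS in the S6K1 series, overlapping and not called (-0.31 ± 0.17, adjusted p = 0.305; 0.0239 with the replicate block). It fell from 33.4, 27.6 and 30.8 CPM to 25.4, 18.3 and 20.1 CPM in the S6K1/S6K2 series (-0.52 ± 0.16, adjusted p = 0.0387).

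Apaf1, the scaffold of the apoptosome, measured 60.8, 96.7 and 79.4 CPM with EV and 68.4, 101 and 113 CPM with RAS in the S6K1 series, where the groups overlapped (0.26 ± 0.26, adjusted p = 0.581). Apaf1 rose from 39.2, 62.95 and 69.8 CPM to 71.97, 108 and 97.1 CPM in the S6K1/S6K2 series (0.69 ± 0.21, adjusted p = 0.0404). The pair of death receptors diverged. Fas, the receptor for Fas ligand, measured 32.6, 27.2 and 44.98 CPM with EV and 13.1, 11.9 and 18.7 CPM with RAS in the S6K1 series and fell by 1.26 ± 0.28 (adjusted p = 0.0173). Fas fell in the S6K1/S6K2 series from 25.1, 45.3 and 54.7 CPM to 17.9, 17.03 and 29.4 CPM, by 0.96 ± 0.31 (adjusted p = 0.0478). The first set did not overlap, and the second did through the EV library at 25.1 CPM. Within same-numbered pairs Fas was lower with RAS in all 6. Tnfrsf10b, the mouse receptor for TRAIL, measured 66.5, 73.3 and 93.2 CPM with EV and 75.6, 79.5 and 125 CPM with RAS in the S6K1 series (0.26 ± 0.21, adjusted p = 0.477). It rose from 35.98, 60.5 and 90.4 CPM to 91.2, 114 and 134 CPM in the S6K1/S6K2 series (0.86 ± 0.29, adjusted p = 0.0497), the weakest call of the 14.

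The remaining 5 apoptosis genes were called in neither series. Bax, the pore-forming effector, gave 0.36 ± 0.18 and 0.21 ± 0.13, with group means of 121 ± 17.6 CPM (SD, n = 3) with EV and 155 ± 26.2 CPM with RAS in the S6K1 series. It was past the threshold in that series with the replicate block (adjusted p = 0.00586). Ei24, an endoplasmic reticulum protein, gave 0.26 ± 0.11 and 0.39 ± 0.14, and passed with the block in both (adjusted p = 0.0321 and 0.0435). Aen, an apoptosis-enhancing nuclease, gave -0.13 ± 0.14 and 0.21 ± 0.17. Trp53inp1, a stress protein that acts with p53, gave -0.49 ± 0.42 and 0.13 ± 0.32, and its value in the S6K1 series passed with the block (adjusted p = 0.012). Eda2r, the X-linked receptor for ectodysplasin A2, gave -0.16 ± 0.22 and 0.75 ± 0.31, with an adjusted p of 0.0389 with the block in the S6K1/S6K2 series.

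The 10 genes of growth arrest, stress and mTORC1 inhibition held 1 call in the S6K1 series and 4 in the other. Plk3, a Polo-like kinase of the stress response, measured 35.8, 22.3 and 14.9 CPM with EV and 72.99, 70.5 and 54.9 CPM with RAS in the S6K1 series. It rose by 1.44 ± 0.28 (adjusted p = 0.0102). Plk3 in the S6K1/S6K2 series measured 11.5, 7.25 and 11.3 CPM and 61.5, 40.1 and 47.1 CPM and rose by 2.31 ± 0.23 (adjusted p = 0.000228), the lowest adjusted p among the members in either series. Neither set overlapped, and Mdm2 and Plk3 were the 2 members called in both series under all 17 alternatives tried for each. Plk2, its relative, measured 301, 240.0 and 196 CPM with EV and 354, 329 and 321 CPM with RAS in the S6K1 series, without overlap (0.45 ± 0.16, adjusted p = 0.114; 0.0043 with the block). Plk2 rose from 135, 99.8 and 156 CPM to 265, 190.2 and 257 CPM in the S6K1/S6K2 series (0.87 ± 0.23, adjusted p = 0.0235).

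Gadd45a, a damage-inducible inhibitor of the cycle, measured 56.8, 35.1 and 38.9 CPM with EV and 75.9, 49.7 and 77.4 CPM with RAS in the S6K1 series, overlapping (0.63 ± 0.24, adjusted p = 0.13; 0.00198 with the block). It rose from 73.9, 46.7 and 40.2 CPM to 117, 101 and 84.6 CPM in the S6K1/S6K2 series (0.91 ± 0.23, adjusted p = 0.0162). The sestrins, which bind GATOR2 and inhibit mTORC1, had estimates below 0. Sesn1 measured 15.9, 22.95 and 22.99 CPM with EV and 14.1, 12.4 and 19.4 CPM with RAS in the S6K1 series (-0.43 ± 0.22, adjusted p = 0.256; 0.0339 with the block). It fell from 50.8, 38.99 and 23.1 CPM to 14.9, 16.7 and 18.3 CPM in the S6K1/S6K2 series (-1.18 ± 0.25, adjusted p = 0.00931). The RAS libraries of both series lay within 12.4 to 19.4 CPM, while the EV libraries spread from 15.9 to 50.8 CPM. Sesn2 measured 89.2, 114 and 93.3 CPM with EV and 73.1, 75.9 and 85.9 CPM with RAS in the S6K1 series, and 113, 84.5 and 95.9 CPM and 78.3, 70.4 and 79.9 CPM in the other. The groups did not overlap in either, at -0.34 ± 0.13 and -0.36 ± 0.13, and neither was called (adjusted p = 0.14 and 0.0646; 0.0281 and 0.0654 with the block).

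The other 5 genes of this role were not called in either series. Btg2, an antiproliferative cofactor, gave -0.25 ± 0.16 and 0.37 ± 0.24, and the first passed with the block (adjusted p = 0.0301). Gtse1, a microtubule protein that carries p53 out of the nucleus, gave 0.24 ± 0.14 and 0.62 ± 0.33. Gdf15, a secreted stress cytokine, was low in all libraries (0.598 to 6.69 CPM) and gave -0.42 ± 0.50 and 0.17 ± 0.81. Zmat3, an RNA-binding protein, gave -0.09 ± 0.12 and -0.05 ± 0.14, and Phlda3, an inhibitor of Akt, gave -0.16 ± 0.16 and -0.12 ± 0.19. For Zmat3 and Phlda3 the 95% intervals of both series lay inside a change of 1 on the log2 scale.

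None of the 5 genes of DNA repair and nucleotide supply was called in either series by the fit of each series without the block, and 3 of them had an unadjusted p under 0.05 in the S6K1/S6K2 series. Xpc, the damage sensor of nucleotide excision repair, gave 0.23 ± 0.17 and 0.55 ± 0.19 (adjusted p = 0.0595 for the second; 0.0277 with the block). Ddb2, which recognises ultraviolet lesions, gave 0.03 ± 0.19 and -0.60 ± 0.23 (adjusted p = 0.0789 for the second; 0.0327 with all 18 libraries in the fit). Rrm2b, a p53-inducible ribonucleotide reductase subunit, gave 0.17 ± 0.19 and 0.45 ± 0.19. Polk, a translesion polymerase, gave -0.12 ± 0.24 and 0.55 ± 0.28. Ercc5, the excision repair nuclease, gave -0.24 ± 0.17 and 0.14 ± 0.16, and the first passed with the block (adjusted p = 0.025).

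Of the 6 other targets, Ephx1 fell in both series and Cyfip2 rose in one. Ephx1, the microsomal epoxide hydrolase, measured 341, 269 and 377 CPM with EV and 179, 136 and 195 CPM with RAS in the S6K1 series (fell by 0.95 ± 0.19, adjusted p = 0.0115). It went in the S6K1/S6K2 series from 334, 355 and 376 CPM to 238, 203 and 263 CPM (fell by 0.60 ± 0.13, adjusted p = 0.00823). Neither set overlapped. Cyfip2, a subunit of the WAVE complex that drives actin assembly, measured 12.04, 14.9 and 6.14 CPM with EV and 11.95, 11.6 and 16.3 CPM with RAS in the S6K1 series, overlapping (0.26 ± 0.30, adjusted p = 0.623). It rose from 4.80, 1.41 and 4.20 CPM to 11.6, 20.01 and 21.2 CPM in the S6K1/S6K2 series (2.34 ± 0.42, adjusted p = 0.00371). The RAS libraries ran from 11.6 to 16.3 CPM in one series and from 11.6 to 21.2 CPM in the other, and the EV libraries of the S6K1/S6K2 series lay below all those of the S6K1 series. Dcxr, a xylulose reductase, gave 0.23 ± 0.26 and 0.15 ± 0.17. Dram1, a lysosomal regulator of autophagy, gave -0.27 ± 0.13 and 0.02 ± 0.26. Ccnk, a cyclin of transcriptional kinases, gave 0.17 ± 0.10 and 0.15 ± 0.12. Rps27l, a ribosomal protein with a close paralogue that could share its reads, gave 0.36 ± 0.24 and 0.28 ± 0.15, and the first passed with the block (adjusted p = 0.0168).

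In the fit without the block, many of the 20 calls lay near the threshold. Each of the 9 libraries of a series was left out of that fit in turn. In the S6K1 series, Mdm2 and Plk3 stayed called in 9 of 9 such fits, with adjusted p up to 0.00989 and 0.0483. Ephx1 stayed called in 8 (adjusted p = 0.0536 without WT RAS replicate 2), and Perp and Fas in 6 each, with adjusted p reaching 0.0706 for Perp when WT EV replicate 1 was dropped and 0.0819 for Fas when it was WT RAS replicate 2. Pmaip1 stayed called in 2, with an adjusted p up to 0.14 (without WT EV replicate 2). In the S6K1/S6K2 series, the calls of Mdm2, Perp, Sesn1, Plk3, Ephx1 and Cyfip2 held in 9 of 9 fits. Gadd45a held in 8 (adjusted p = 0.0613 without WT EV replicate 2), Plk2 in 6 (up to 0.0855, on dropping the same library) and Pmaip1 in 5 (up to 0.114, on dropping WT RAS replicate 3). The calls of Bbc3 and Fas held in 3 fits each, with adjusted p up to 0.132 and 0.159, both without WT RAS replicate 2. Those of Ccng1, Apaf1 and Tnfrsf10b held in 2 each, with adjusted p up to 0.122, 0.139 and 0.154. Dropping WT RAS replicate 3 gave the first and last of these, and dropping WT RAS replicate 2 the value of Apaf1. No call changed its sign in any of these fits. Calls were also lost with the fold change hardly moved, when a library outside the comparison was dropped: Pmaip1 in the S6K1 series stood at 0.69 (adjusted p = 0.0581) without KO RAS replicate 2, and Tnfrsf10b and Apaf1 in the other at 0.87 and 0.70 (adjusted p = 0.0627 and 0.0568) without DKO RAS replicate 3. In the S6K1/S6K2 series other fits called members beyond the 14. With all 18 libraries in the fit, Ei24 and Xpc were higher (adjusted p = 0.0197 and 0.0301) and Sesn2 and Ddb2 lower (adjusted p = 0.0445 and 0.0327). DESeq2 called Ei24 and Xpc higher (adjusted p = 0.0388 and 0.046), upper-quartile scaling Sesn2 lower (adjusted p = 0.0433), and the fit with no filter Eda2r higher (adjusted p = 0.0206).

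Whether RAS acted unequally in the 2 series was tested as an interaction over all 18 libraries, without the block. No member passed (0% of all 14483 genes were called), and 7 had an unadjusted p under 0.05. The RAS effect on Cyfip2 was 2.07 ± 0.54 higher in the S6K1/S6K2 series (adjusted p = 0.187), and that on Mdm2 0.89 ± 0.36 higher (adjusted p = 0.343). DESeq2 called Cyfip2 alone among the members (adjusted p = 0.0234). Without EV replicate 3 of the S6K1/S6K2 series, edgeR called 2 members, Mdm2 at 1.37 (adjusted p = 0.0165) and Pmaip1 at 1.84 (adjusted p = 0.0476).

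The EV libraries of the S6K1/S6K2 series stood apart from one another in the p53 targets. Replicate 1 held the lowest value for 23 of 36 members (63.9%), compared with 40.6% of all genes tested. This excess was not confined to these libraries. In the other groups of both series replicate 1 was lowest for 41.7% to 52.8% of members, beside 37.3% to 42.2% of all genes. The median coefficient of variation of the members in this group was 24.1%, against 18.4% for all genes, whereas in the EV group of the S6K1 series both were near 16% (16.5% and 16.3%). Summed over the members, these 3 EV libraries held 2848, 3551 and 4578 CPM, and the EV libraries of the S6K1 series 4253, 4178 and 4545 CPM. Cdkn1a, which encodes the cycle inhibitor p21 and is no member, followed with 308, 508 and 708 CPM. Proliferation genes (10 genes) summed to 383, 833 and 462 CPM in the same 3 libraries, and macrophage markers (10 genes, all above 3 counts in at least 1 library) to 1309, 148 and 191 CPM. Their part in the spread of the p53 targets was not tested. Leaving out replicate 3 of this EV group raised the count of members called for RAS from 14 to 17 (15 higher, 2 lower), and leaving out replicate 2 lowered it to 6. The count was 9 without EV replicate 1 or DKO RAS replicate 2, and 8 without WT RAS replicate 2 or replicate 3. In the S6K1 series it fell from 6 to 3 without WT RAS replicate 1 and stood at 4 to 6 without any other library.

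**Figure D3:**
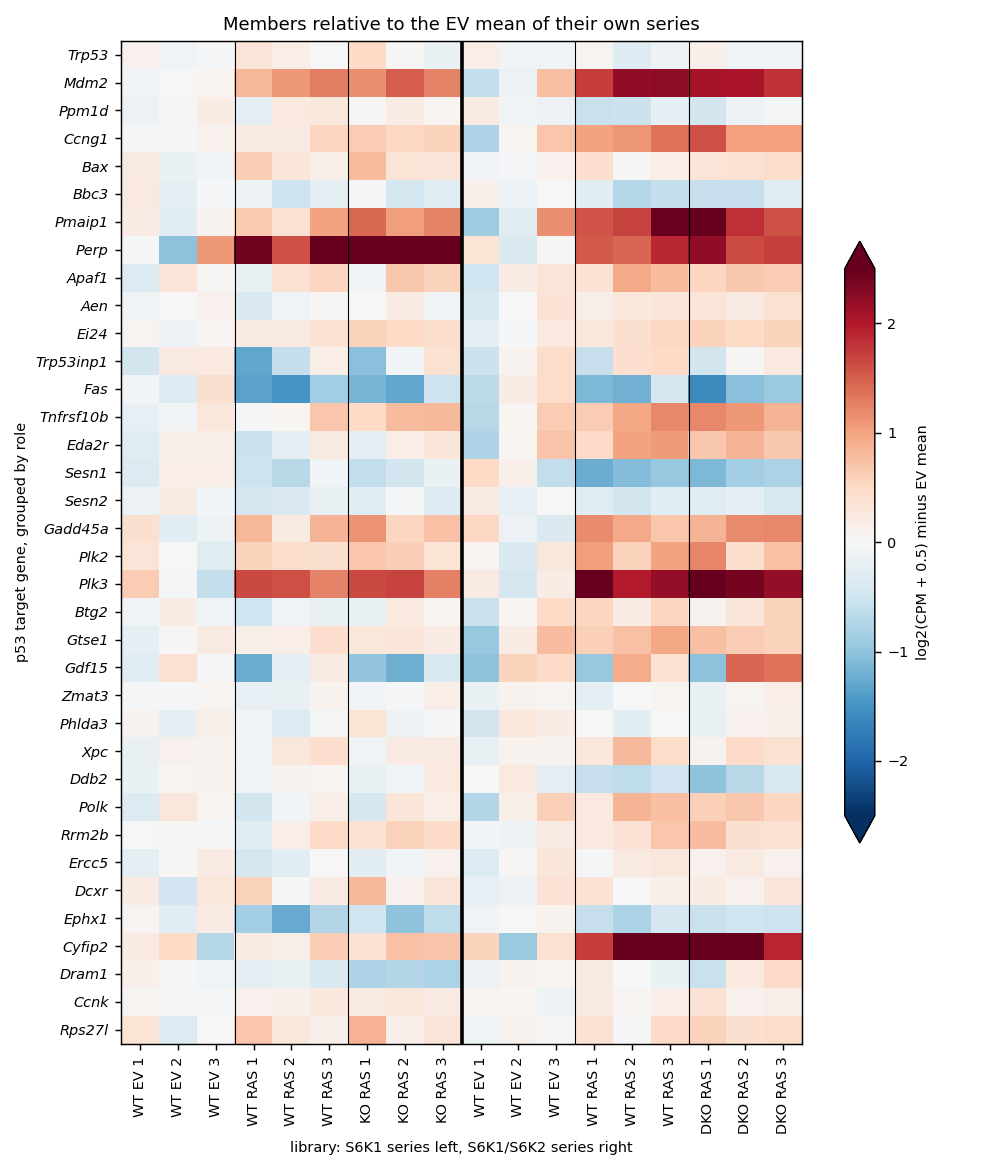
Level of the 36 members (rows, grouped by role) in the 18 libraries (columns), as log2(CPM + 0.5) minus the mean of the EV libraries of the same series. Red is higher and blue lower, and values past the ends of the scale take its end colours. Mdm2, Perp and Plk3 are red in the RAS libraries of both series, and Fas and Ephx1 are blue. EV replicate 1 of the S6K1/S6K2 series is lower than replicate 3 for Ccng1, Pmaip1, Gtse1 and Polk, and higher for Sesn1 and Gadd45a.

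Loss of S6K1 in RAS cells left no member past the threshold without the replicate block, and 3 members with it. The comparison shares its WT RAS libraries with that of RAS against EV. With the fit without the block, 0 of 36 were called (0.00712% of all genes, which is 1 gene), and 3 had an unadjusted p under 0.05, where 6.86% of all genes did. With the replicate block 14 members (38.9%) had one, where 17.8% of all genes did, and 13 of the 14 had estimates above 0. DESeq2 also called 0 members. In the edgeR fit without the block the lowest adjusted p was 0.587, shared by Pmaip1 and Dram1. For 33 of 36 members the 95% interval lay inside a change of 1 on the log2 scale. The estimates lay above 0 for 30 of 36 members, and for 56.6% of all genes. The median over the members was 0.15, and over all genes 0.03. The KO and WT libraries did not overlap for 4 members, namely Pmaip1, Perp and Ei24 (higher) and Dram1 (lower), and for 8.02% of all genes.

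With the replicate block, 3 members were called (4.15% of all genes). Pmaip1 measured 221, 182 and 281 CPM in WT RAS and 377, 288 and 329 CPM in KO RAS libraries, higher by 0.55 ± 0.11 (adjusted p = 0.018). Tnfrsf10b measured 75.6, 79.5 and 125 CPM and 108, 134 and 135 CPM, higher by 0.46 ± 0.11 (adjusted p = 0.0463). Dram1 measured 16.4, 16.8 and 14.7 CPM and 11.1, 11.3 and 10.9 CPM, and fell by 0.52 ± 0.11 (adjusted p = 0.0262). The first and the last did not overlap, and all 3 genes moved the same way in 3 of 3 pairs. Perp stood at 134, 76.6 and 175 CPM and 299, 200.4 and 205 CPM, 0.87 ± 0.48 without the block and 0.99 ± 0.29 with it (adjusted p = 0.888 and 0.104). The 10 macrophage markers, all detected, summed to 674 to 3120.5 CPM in the WT RAS and to 232 to 770 CPM in the KO RAS libraries. All 10 were called lower in KO RAS with the block, and 0 without it. The part of these markers in the values of the members was not tested.

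The other genes followed in every library were not called with or without the block. In KO RAS libraries Trp53 measured 142, 103 and 89.7 CPM, Mdm2 616, 784 and 658 CPM and Ccng1 1699, 1569 and 1620.0 CPM. The log2 differences from WT RAS were -0.02 ± 0.17, 0.24 ± 0.15 and 0.24 ± 0.13. Bbc3 measured 25.9, 19.6 and 21.7 CPM, Apaf1 72.7, 124 and 116 CPM and Fas 15.01, 13.6 and 23.8 CPM. Their differences were 0.03 ± 0.17, 0.14 ± 0.26 and 0.26 ± 0.28. Plk2 measured 391, 368 and 308 CPM, Plk3 72.6, 75.2 and 55.6 CPM and Gadd45a 93.9, 62.3 and 71.2 CPM. These differed from WT RAS by 0.09 ± 0.16, 0.04 ± 0.28 and 0.16 ± 0.24. The sestrins measured 13.1, 14.6 and 18.2 CPM (Sesn1) and 82.03, 94.6 and 78.2 CPM (Sesn2), which is 0.00 ± 0.22 and 0.12 ± 0.13 from WT RAS. Ephx1 measured 230.1, 161 and 211 CPM and Cyfip2 13.6, 17.5 and 17.4 CPM, 0.24 ± 0.19 and 0.28 ± 0.29 from WT RAS. All of these KO ranges overlapped those of WT RAS. Within same-numbered pairs, however, Ccng1, Apaf1, Fas, Ephx1 and Cyfip2 were higher in KO RAS in 3 of 3. With the block the differences were 0.25 ± 0.10 for Ccng1 (adjusted p = 0.215), 0.14 ± 0.09 for Apaf1 (adjusted p = 0.502), 0.25 ± 0.10 for Fas (adjusted p = 0.225), 0.24 ± 0.08 for Ephx1 (adjusted p = 0.143) and 0.27 ± 0.26 for Cyfip2 (adjusted p = 0.638). Mdm2 was higher in 2 of 3 pairs, at 0.24 ± 0.10 (adjusted p = 0.249).

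**Figure D4:**
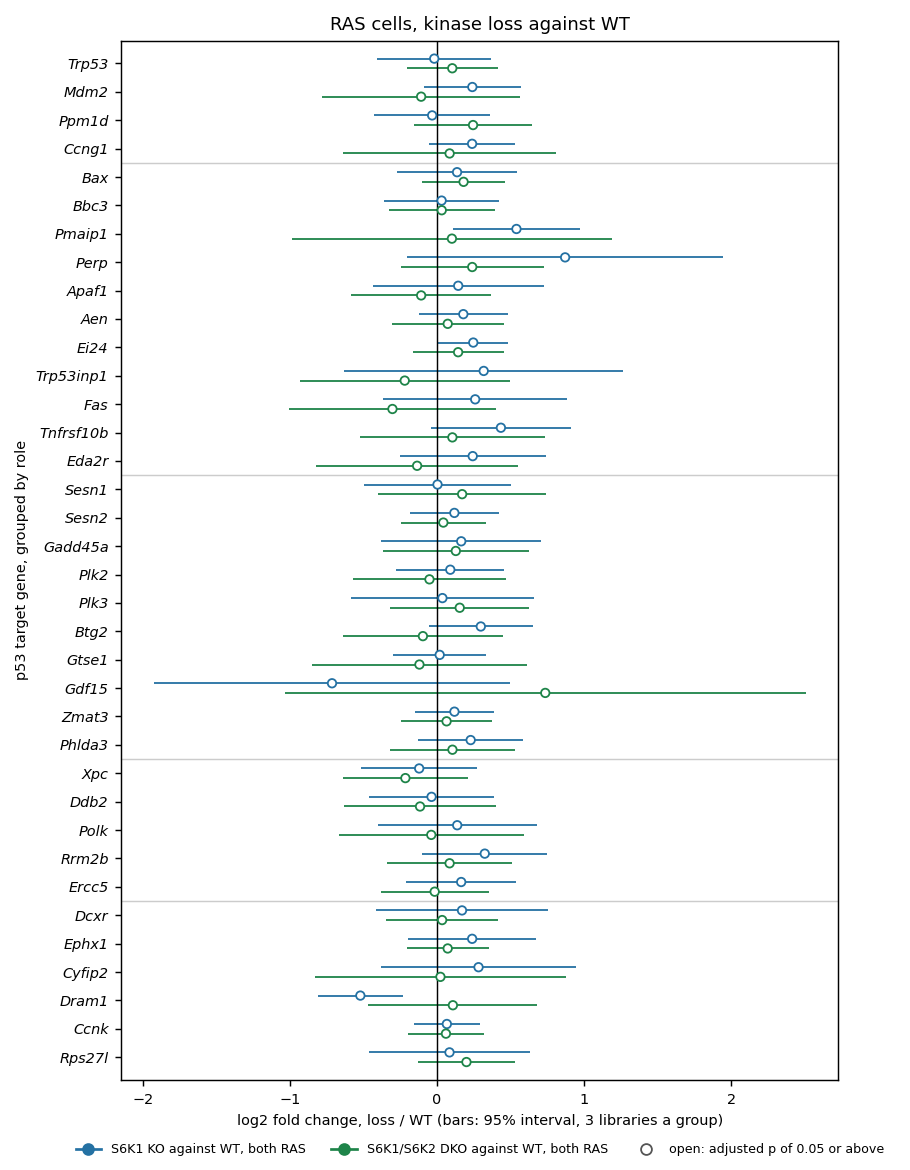
Log2 fold change in RAS cells of S6K1 KO against WT and of S6K1/S6K2 DKO against WT (horizontal axis) for the 36 members, grouped by role as in the plot of the RAS effect. Points are edgeR estimates without the block and bars are 95% intervals from 3 libraries a group. All points are open, since no adjusted p was under 0.05, and the widest interval is that of Gdf15.

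Loss of both kinases left no member past the threshold, with or without the block. In DKO RAS against WT RAS, 0 of 36 members were called by edgeR or DESeq2 (0.0216% of all genes by edgeR), and 0 had an unadjusted p under 0.05, where 1.29% of all genes did. The DKO and WT libraries overlapped for all 36 members, whereas 6.07% of all genes did not overlap. The estimates ran from -0.30 (Fas) to 0.74 (Gdf15), with a median of 0.07 beside 0.00 over all genes. The 95% interval lay inside a change of 1 on the log2 scale for 33 of 36. For Gdf15, Pmaip1 and Fas it reached beyond that, to -1.04 to 2.51, -0.99 to 1.19 and -1.01 to 0.40, so that a change of that size was not excluded for them.

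In DKO RAS libraries Trp53 measured 118, 101 and 103 CPM, Mdm2 705, 694 and 589.8 CPM and Ccng1 2084, 1389.6 and 1388 CPM. The log2 differences from WT RAS were 0.10 ± 0.14, -0.11 ± 0.30 and 0.09 ± 0.32. Perp measured 326, 218 and 228 CPM, Pmaip1 491, 288 and 243 CPM and Bbc3 20.2, 20.4 and 24.6 CPM, at differences of 0.24 ± 0.22, 0.10 ± 0.49 and 0.03 ± 0.16. The death pathway genes Apaf1, Fas and Tnfrsf10b measured 81.5, 89.02 and 86.7 CPM, 12.9, 18.9 and 20.5 CPM and 135, 125 and 105 CPM. They differed by -0.11 ± 0.21, -0.30 ± 0.32 and 0.10 ± 0.28. Plk2, Plk3 and Gadd45a measured 299.6, 174 and 214 CPM, 65.5, 53.3 and 46.7 CPM and 93.3, 118 and 119.8 CPM, at -0.05 ± 0.23, 0.15 ± 0.21 and 0.13 ± 0.22. Sesn1 measured 16.2, 19.6 and 20.5 CPM and Sesn2 78.98, 82.9 and 73.5 CPM, at 0.17 ± 0.26 and 0.04 ± 0.13. The remaining pair, Ephx1 and Cyfip2, measured 240.4, 252 and 248 CPM and 20.6, 20.1 and 12.99 CPM, at 0.07 ± 0.13 and 0.02 ± 0.38. All of these DKO ranges overlapped those of WT RAS, and for Pmaip1 the DKO libraries alone ran from 243 to 491 CPM.

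The loss effect was also compared between the series. No member differed by the interaction test (0.0069% of all genes did, which was Rps6kb2), and Dram1 alone had an unadjusted p under 0.05, at 0.66 ± 0.29 (adjusted p = 1). DESeq2 called 0 members. Dram1 in the S6K1/S6K2 series measured 17.1, 14.4 and 12.9 CPM in WT RAS and 9.71, 17.4 and 20.6 CPM in DKO RAS libraries.

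Genes around the network were counted on lists of their own. Of 28 p53 regulators and partners that are no members, 26 were tested in the S6K1 series, where 2 rose and 0 fell, and 27 in the other, where 5 rose and 1 fell. Cdkn2a, whose gene-level counts pool p16Ink4a and p19Arf, rose by 1.00 ± 0.18 and 1.23 ± 0.19 (adjusted p = 0.00652 and 0.00184). Trp53bp2, which encodes the p53 cofactor ASPP2, rose by 0.79 ± 0.18 and 1.21 ± 0.13 (adjusted p = 0.0195 and 0.000377). In the S6K1/S6K2 series Ppp1r13l, the inhibitory relative of ASPP2, Hipk2, a p53 kinase, and Pml, the scaffold of nuclear bodies, rose by 0.70 ± 0.20, 1.18 ± 0.39 and 0.84 ± 0.26. Rchy1, which encodes the p53 ubiquitin ligase Pirh2, fell by 0.46 ± 0.14. With the block the counts were 3 higher and 4 lower in the S6K1 series and 5 higher and 2 lower in the other.

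Of 20 further p53 targets, 19 were tested, and 2 rose in the S6K1 series while 3 rose and 2 fell in the S6K1/S6K2 series (with the block, 5 rose and 2 fell in each). Lif, a cytokine of the interleukin-6 family, rose by 1.99 ± 0.27 and 3.22 ± 0.31 (adjusted p = 0.00164 and 0.000205), and Trp53i11 by 0.52 ± 0.14 and 0.99 ± 0.28. Dglucy rose by 0.91 ± 0.28, and Steap3, a metalloreductase, and Cd82, a tetraspanin, fell by 1.79 ± 0.35 and 1.22 ± 0.38 in the S6K1/S6K2 series. Cdkn1a was not called, at 0.04 ± 0.12 and 0.37 ± 0.25 (adjusted p = 0.869 and 0.298). Of the 10 proliferation genes, 2 fell in the S6K1 series (Mki67 by 1.15 ± 0.20 and Top2a by 0.60 ± 0.14) and 6 fell in the S6K1/S6K2 series, with 0 higher. With the block 3 fell in the first series and 1 in the second. Their sum went from 415 to 473 CPM with EV to 234 to 354 CPM with RAS in the S6K1 series and to 160 to 241 CPM in KO RAS libraries, and none of the 10 was called between KO RAS and WT RAS by the fit with or without the block. In the loss comparisons 0 genes of the 3 lists were called. For loss of S6K1 with the block, edgeR gave an unadjusted p under 0.05 for 9 of 10 proliferation genes. It did so for 8 of 19 further targets, 3 of 26 regulators and 17.8% of all genes. Without the block these counts were 5, 1 and 0, beside 6.86% of all genes. With the block, estimates were above 0 for 0 proliferation genes, 14 further targets and 18 regulators.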

How the data were processed

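Poly(A) RNA of 18 MEF libraries was sequenced as single-end reads of 50 bases. The authors deposited 1 table of raw counts per gene. The submitters' processing notes name CASAVA, STAR 2.7.1a, DESeq2 1.28.1 and the build mm10, while the study's methods name another aligner and build, so the annotation behind the counts is not settled and could move values of genes whose models differ. Symbols were matched for 32589 of 55401 gene identifiers. Coordinates and promoters are RefSeq's for GRCm38.p6. Of the members, 12 overlap another annotated gene and 6 a protein-coding one (Apaf1, Plk3, Ddb2, Cyfip2, Dram1 and Ccnk). Whether counting used the strand is not given in the sources used here, so these values are less certain.

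Groups came from the labels. Each series (9 libraries) was fitted with edgeR 4.0.16 (quasi-likelihood, filterByExpr with a minimum count of 10, TMM), and the differences between series over all 18 libraries. The members, the gene lists and the genes given with every library (Trp53, Mdm2, Sesn1, Sesn2 and the members called in at least 1 comparison) were chosen with earlier results of these data known. For other lists, up to 6 called genes are named. Intervals are 95% intervals of the log2 fold change, from the spread between libraries as fitted. The fits were tested on simulated counts with 200 changed genes: for RAS in the S6K1 series, 43.4% of genes changed by 1 on the log2 scale and 81.6% of those changed by 2 were recovered. Titles number the MEF preparations alike in each group. Deviations of same-numbered libraries from their group means correlated at 0.444 to 0.684 for RAS in the S6K1 series. The values were 0.393 to 0.692 for S6K1 loss and 0.293 to 0.366 for RAS in the S6K1/S6K2 series. In these comparisons the numbers were taken to pair the samples. The pairs entered only the replicate block and the counts within pairs. Every other fit, with its intervals, left-out libraries and interaction tests, took no account of them. For the double loss the correlations were 0.279, 0.454 and -0.035, a range that overlaps that of RAS in the same series. WT and DKO embryos were not littermates, so the numbers were not taken as pairs there. The labels do not say which embryo or mother each library came from, so p-values set a difference against the spread between these libraries only. Alternatives were the replicate block, DESeq2 1.42.0, other scalings and filters, other sets of libraries in the fit and each library left out.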

Additional observations from a re-analysis of the deposited data

How the results depend on the processing

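Of the 6 calls of RAS in the S6K1 series, Mdm2 and Plk3 held under all 17 alternatives, and of the 14 in the S6K1/S6K2 series, Mdm2, Perp, Sesn1, Plk3, Ephx1 and Cyfip2 did. No called member changed sign. The replicate block gave 18 members and 5085 genes called in the S6K1 series, and 3 members and 583 genes for loss of S6K1. It gave 0 members and 58 genes for the difference in RAS effect. For the double loss, where the numbers were not taken to pair the samples, it gave 8 genes. In the S6K1 series it also raised the p53 regulators and the further targets called from 2 to 7 each, and in the S6K1/S6K2 series it lowered the proliferation genes called from 6 to 1 and added Ei24, Eda2r and Xpc to the members called. Fitting only the 6 compared libraries left 8 members for RAS in the S6K1/S6K2 series and 0 genes for loss of S6K1. Genes called rose to 96 for loss of S6K1, 10 for double loss and 142 for the difference in RAS effect with DESeq2 (with 1 member), and to 108, 11 and 204 without a filter (with 1 member, Cyfip2, in the last). With all 18 libraries they were 4 and 7 for the single and double loss. Leaving out 1 library gave 3 to 6 members and 1043 to 1919 genes for RAS in the S6K1 series, 6 to 17 members and 2050 to 4199 genes in the other, 0 to 22 genes for loss of S6K1, 1 to 3 genes for double loss, and 0 to 2 members and 0 to 290 genes for the difference in RAS effect. The lowest gene counts for RAS came without WT RAS replicate 2 in both series, the 22 genes without WT RAS replicate 3, and the 290 genes without EV replicate 3 of the S6K1/S6K2 series. The cause of these moves was not tested. With 3 libraries a group, changes below 1 on the log2 scale were often missed.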
